A study of Mus musculus with 22 samples.

Results

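The 10 genes described here mark macrophages at the borders of the brain: Mrc1, Lyve1, Cd163, Stab1, Cd209f, Folr2, Pf4, F13a1, Cbr2 and Ms4a7. They were chosen as listed perivascular and meningeal macrophage genes, by name and by no threshold on values, and each matched 1 of the 56691 genes in the files. All 10 passed the filter on low counts in every comparison. Border-associated macrophages live in the perivascular spaces, the meninges and the choroid plexus, and carry the CD11b protein as microglia do, so cells isolated on CD11b beads include both. They take up debris and solutes through scavenger and lectin receptors, and most of the genes above encode such receptors. Microglia, the macrophages of the brain tissue itself, express these genes at low levels or not at all, and are known instead by genes such as P2ry12 and Tmem119.

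CD11b+ cells were enriched on magnetic beads from brains of CF-1 wildtype mice, an outbred strain, and their total RNA was sequenced in 22 libraries from 20 animals, with 4 animals in each of 5 groups. In the HIE groups, a model of neonatal hypoxic-ischemic encephalopathy, bacterial LPS was given to the mother on E18, late in pregnancy, and the pups were exposed to hypoxia on P6. The groups were HIE pups on P7, early controls, and HIE, control and hypoxia animals on P14, and the sources used here do not describe the hypoxia group further. By their labels the early controls were 1 pup each of P8, P9, P10 and P11, although the text of the study places its acute time point on P7. The labels list 4 males among the HIE P7 pups, and 2 males and 2 females in every other group. With these labels, age and HIE cannot be told apart in the early comparison, and sex and HIE cannot be fully told apart. Animals share name prefixes in pairs, which the sources do not define and which are called litters here. The litter names begin with N in all HIE P7 pups and with P6H in all early controls, so HIE and this beginning cannot be told apart. On P14 they begin with P6H in all hypoxia animals, and with P4H or P6H in both the HIE and the control group. The sources do not define these beginnings either. Each group held 2 litters and no litter was split between groups, so a difference between groups and one between litters cannot be fully told apart, and a p-value over 4 animals treats littermates as separate samples.

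Total counts were 70191584 to 83469067 in the early libraries and 29751540 to 46404123 in the P14 libraries, which the authors deposited as separate tables named as batches, so day and batch cannot be told apart. The labels call the cells monocytes (CD11b+). The summed level of 15 genes common to macrophages, among them Csf1r and C1qa, was 13223 to 19163 CPM, a gene's counts scaled to the animal's total, in the 16 animals outside the early controls, whereas 10 monocyte and neutrophil genes reached at most 385 CPM in any animal. The 2 early control pups of litter P6H63 stood apart. Their pan-macrophage sums were 1405 and 2305 CPM and their sums of 11 microglia genes 1248 and 1997 CPM, against 10905 and 12247 CPM and 10513 and 11371 CPM in the other early controls, the P6H55 pups, while 9 endothelial genes summed to 2231 and 2849 CPM against 987 and 991 CPM. By their labels the P6H63 pups were P8 and P9 and the P6H55 pups P10 and P11, so litter and age cannot be told apart among the early controls. Comparisons with the early controls are given with and without litter P6H63, and leaving it out leaves only the P10 and P11 pups. In bulk RNA, fewer cells of a type and less RNA per cell cannot be told apart.

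Levels below are CPM of each animal's total counts, and differences are log2 fold changes with their standard errors from edgeR's quasi-likelihood test after TMM scaling, with p-values adjusted by Benjamini-Hochberg over all genes tested. A gene is said to rise or fall where the adjusted p was under 0.05.

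The genes lie on 9 chromosomes of GRCm39 and are all protein-coding in GENCODE M39. The endocytic receptors are Mrc1 (chr2:14234151-14336926, plus strand), Lyve1 (chr7:110448585-110462460, minus strand), Cd163 (chr6:124281606-124307560, plus strand), Stab1 (chr14:30860970-30890598, minus strand), Cd209f (chr8:4151166-4155847, minus strand) and Folr2 (chr7:101489195-101506401, minus strand). The secreted proteins are encoded by Pf4 (chr5:90918479-90922110, plus strand) and F13a1 (chr13:37051152-37234277, minus strand), and the remaining members are Cbr2 (chr11:120620312-120622940, minus strand) and Ms4a7 (chr19:11298403-11313510, minus strand). In the 250 bases before the start of the canonical transcript, 1 of the 10 genes, Mrc1, held the PU.1 core GAGGAAG on either strand (in the reverse orientation, 94 to 88 bases before the start), against 10.3% of 21770 protein-coding genes. None of the 10 held the MAF motif TGCTGAC on either strand, against 3.24% of all. These motifs were searched because PU.1 and MAF are known macrophage transcription factors, and both strands were read. The stretches before Mrc1 (chr2:14233901-14234150, plus strand), Lyve1 (chr7:110462461-110462710, minus strand) and Pf4 (chr5:90920007-90920256, plus strand), the 3 genes that were lower on P14 in both treatment arms once litter P6H63 was left out, are shown 5' to 3', with the PU.1 core in capitals where it occurred.
Mrc1: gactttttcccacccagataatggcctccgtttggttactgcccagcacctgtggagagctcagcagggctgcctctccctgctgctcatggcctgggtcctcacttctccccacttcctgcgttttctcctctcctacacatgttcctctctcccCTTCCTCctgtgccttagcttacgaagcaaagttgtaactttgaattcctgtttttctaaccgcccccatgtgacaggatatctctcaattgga
Lyve1: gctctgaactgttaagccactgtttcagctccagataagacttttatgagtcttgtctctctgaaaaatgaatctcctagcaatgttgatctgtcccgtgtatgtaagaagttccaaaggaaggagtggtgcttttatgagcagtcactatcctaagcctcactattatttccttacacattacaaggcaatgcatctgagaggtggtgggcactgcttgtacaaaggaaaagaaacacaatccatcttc
Pf4: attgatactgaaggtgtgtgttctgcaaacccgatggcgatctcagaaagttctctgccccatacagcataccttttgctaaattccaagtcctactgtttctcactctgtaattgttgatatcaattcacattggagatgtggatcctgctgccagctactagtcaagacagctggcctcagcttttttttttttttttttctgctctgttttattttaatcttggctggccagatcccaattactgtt

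Mrc1, the mannose receptor, had the highest level of the 10 genes per length in each of the 5 groups, from 124 CPM per kb of exon in the early controls to 206 CPM per kb in the HIE P7 pups. Stab1, a large scavenger receptor that takes up modified lipoproteins and matrix fragments, came next in each group, with 97.8 to 182 CPM per kb. Ms4a7, a membrane protein of the MS4A family, had the lowest level per length, 2.90 to 5.49 CPM per kb. Between these, the group means of Cd163, Cbr2 and Lyve1 on P14 lay between 38.5 and 50.9 CPM per kb, and their order changed from group to group.

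**Figure D1:**
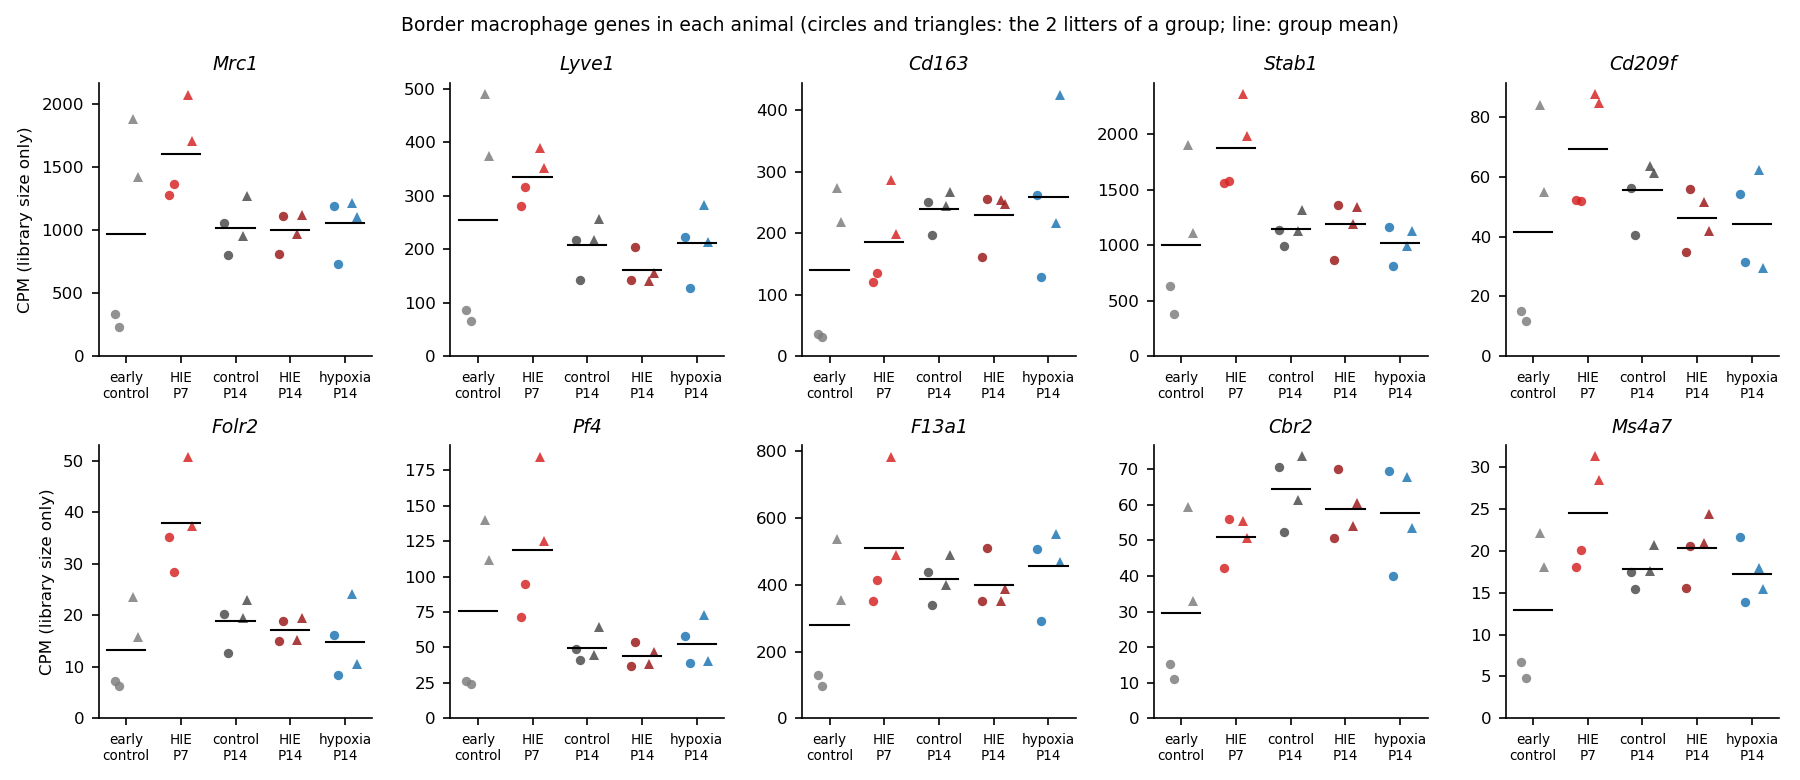
CPM of each of the 10 genes in each of the 20 animals, by group, with circles and triangles for the 2 litters of a group and a line at the group mean. The circles of the early controls, litter P6H63, are the lowest 2 points in every panel, and the P14 groups overlap throughout.

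The first comparison asked how the genes stood shortly after HIE. Mrc1 was at 1282, 1367, 2078 and 1709 CPM in the HIE P7 pups and at 333, 232, 1888 and 1423 CPM in the early controls. The controls split by litter, with the P6H63 pups far below all HIE pups and the P6H55 pups among them. The difference was 0.82 ± 0.69 on the log2 scale (adjusted p = 0.429, edgeR). Stab1 was at 1566, 1581, 2365 and 1989 CPM in the HIE P7 pups and at 633, 384, 1901 and 1106 CPM in the controls, a difference of 1.02 ± 0.52 (adjusted p = 0.225). Cd163, the receptor for haptoglobin-bound hemoglobin, was at 121, 135, 287 and 199 CPM in the HIE pups and at 36.6, 31.3, 273 and 218 CPM in the controls. Here the HIE pups, too, split by litter, with both pups of litter N8 above both pups of litter N5, and all 4 lay inside the range of the controls apart from 1 pup.

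Folr2, which binds folate and marks resident macrophages, was the only member whose groups did not overlap. It was at 35.3, 28.5, 50.8 and 37.4 CPM in the HIE P7 pups and at 7.32, 6.18, 23.5 and 15.8 CPM in the early controls. Even the lowest HIE pup was above the highest control, and the difference was 1.64 ± 0.49 (adjusted p = 0.150, edgeR). DESeq2 called Folr2 (adjusted p = 0.0185), as it called 4.33% of all genes higher in HIE. Groups that do not overlap with HIE higher were found for 4.27% of the genes tested, so 1 of 10 members stands beside that share.

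None of the 10 genes passed the quasi-likelihood test in this comparison, where 0.0666% of 22517 genes passed in either direction. At an unadjusted p under 0.05 stood 1 member, Folr2, beside 6143 of the 22517 genes. All 10 log2 fold changes were above 0, from 0.49 in Lyve1 to 1.64 in Folr2, with a median of 0.86 beside a median of -0.08 over all genes tested. The 15 pan-macrophage genes were also all above 0, with a median of 1.11 (0.28 without litter P6H63). Of these, 11 did not overlap between the groups, beside 4.27% of all genes that were higher without overlap. The count was also 11 without that litter, where the share over all genes was not computed. The 9 choroid plexus genes were all below 0 and none of them overlapped, beside 13.6% of all genes that were lower without overlap, with a median of -1.54 (-0.999 without P6H63).

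These differences depended on the control litter. Against the P6H63 pups alone, all 10 members were higher in the HIE pups (adjusted p = 1.84e-05 in Lyve1 to 0.00069 in Pf4), by 2.26 in Stab1 to 2.89 in Mrc1, and 27.7% of all genes were higher. Against the P6H55 pups alone, none of the 10 passed, beside 0.112% of all genes, the median was 0.12, and Lyve1, Cd163 and Pf4 turned to -0.31 ± 0.16, -0.35 ± 0.32 and -0.03 ± 0.33. Folr2 stayed highest, at 1.004 ± 0.248 (adjusted p = 0.195). When the counts were scaled to the pan-macrophage genes, all 10 members were below 0 in the HIE pups, from -0.76 in Lyve1 to -0.04 in Folr2, while the median of all genes moved to -2.56. None of the 10 passed, whereas 18930 of 22517 genes passed as lower and 3 as higher. With TMM scaling and the sex label as a covariate, all 10 were above 0, from 0.30 to 1.41 with a median of 0.61. None of the 10 passed there, beside 2 of 22517 genes higher and 9 lower.

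The 2 control litters differed in all 10 genes. Both P6H55 pups were above both P6H63 pups in each, by a ratio of mean CPM of 2.91 in Folr2 to 7.22 in Cd163 with a median of 4.45, beside ratios of 6.24 for the pan-macrophage sum and 6.75 for the microglia sum. Per 1000 pan-macrophage counts the order turned: the 10 genes together gave 560 and 618 in the P6H63 pups and 340.2 and 442 in the P6H55 pups. Stab1 contributed most to this, at 275 and 273 per 1000 pan-macrophage counts in P6H63 against 155 and 101 in P6H55, whereas Mrc1 was at 144 and 165 against 154 and 131. Whether cell number, cell type, RNA quality or the age given by the labels underlies the litter difference was not tested.

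The 2 HIE litters differed less. Both N8 pups were above both N5 pups in 9 of 10 members, the exception being Cbr2, a carbonyl reductase, at 1.08, and the highest ratios were in Cd163 (1.90) and Pf4 (1.86). The pan-macrophage sums of the 2 litters were alike, with a ratio of 1.02, and the microglia sum was lower in N8, with a ratio of 0.888. Per 1000 pan-macrophage counts the 10 genes gave 277 and 280.3 in N5 and 356 and 435 in N8.

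**Figure D2:**
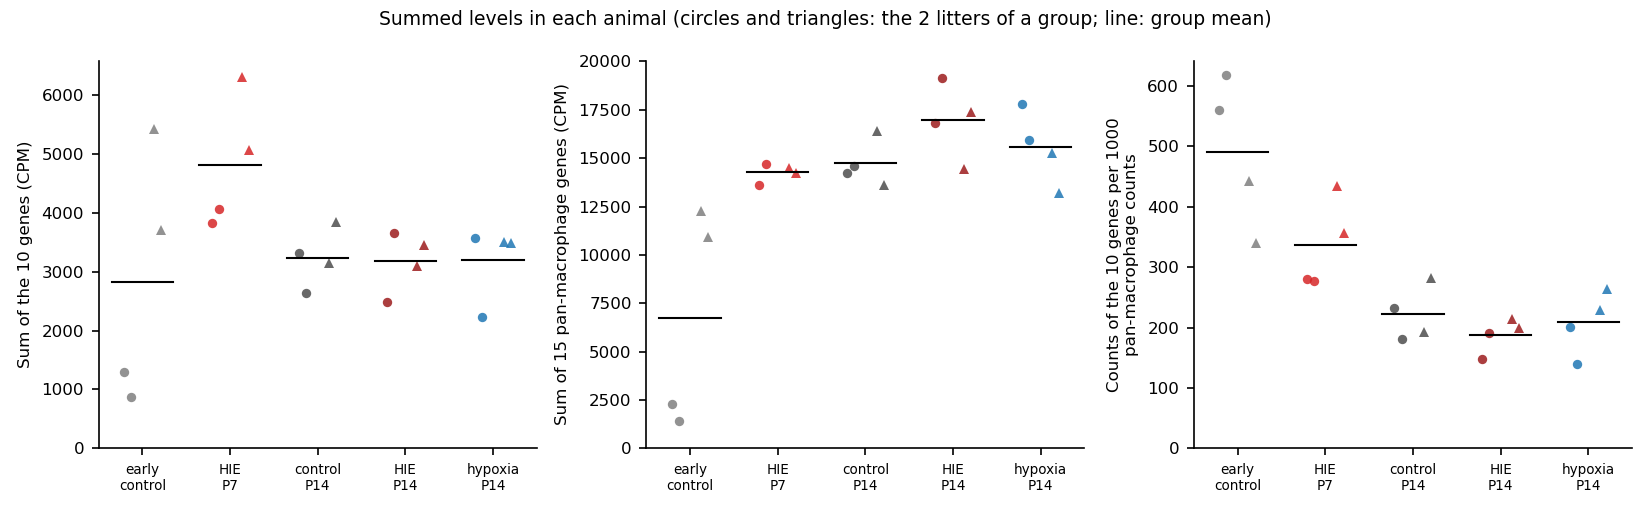
Summed CPM of the 10 genes (left), summed CPM of 15 pan-macrophage genes (middle) and counts of the 10 genes per 1000 pan-macrophage counts (right) in each animal, with circles and triangles for the 2 litters of a group and a line at the group mean. The P6H63 pups are lowest in the first 2 panels and highest, at 560 and 618, in the third.

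On P14 the comparison of HIE with control animals asked whether any difference was present a week later. Mrc1 was at 812, 1109.7, 969.8 and 1120.5 CPM in the HIE animals and at 1057, 952, 807 and 1269 CPM in the controls, and the groups overlapped almost fully. Lyve1, a hyaluronan receptor, had the largest difference in size, with 142, 203, 141 and 155 CPM in HIE and 217, 218, 143 and 257 CPM in controls. Its HIE values were below those of 3 of 4 controls, and 2 of them just below the fourth, yet the difference of -0.32 ± 0.18 did not pass (adjusted p = 0.63, edgeR). Ms4a7 had the largest difference upward, 15.6, 20.6, 20.9 and 24.4 CPM in HIE and 17.5, 17.6, 15.4 and 20.7 CPM in controls, at 0.24 ± 0.13 (adjusted p = 0.629). No member passed and none was without overlap, beside 0.00478% and 5.32% of 20935 genes. At an unadjusted p under 0.05 the count was 0 in edgeR's quasi-likelihood test, beside 2066 of 20935 genes. DESeq2 called 0 at an adjusted p under 0.05, beside 490 genes. In both comparisons with the hypoxia animals these counts were also 0. Beside them stood 1996 (hypoxia against control) and 947 (HIE against hypoxia) genes at that unadjusted p, and 164 and 15 calls by DESeq2. In HIE against control the median of the members was -0.05 and the median of all genes 0.01.

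The hypoxia animals were then set against the P14 controls. Folr2 was at 16.1, 24.2, 10.6 and 8.34 CPM in the hypoxia animals and at 20.2, 19.4, 12.8 and 22.9 CPM in the controls, the largest difference in size at -0.35 ± 0.30 (adjusted p = 0.735, edgeR). Cd209f, a C-type lectin of the DC-SIGN family, followed with 54.2, 62.3, 29.3 and 31.5 CPM against 56.4, 63.5, 40.5 and 61.3 CPM, at -0.32 ± 0.24 (adjusted p = 0.696). In both genes the 2 low hypoxia values were those of the females, 1 from each litter. No member passed and none was without overlap, beside 0.00955% and 4.87% of 20953 genes, and the median was -0.01.

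HIE and hypoxia animals on P14 differed most in Lyve1, at -0.36 ± 0.21 (adjusted p = 0.999, edgeR), and in Ms4a7, at 0.25 ± 0.17 (adjusted p = 1). Again no member passed or was without overlap, beside 0.00955% and 2.62% of 20951 genes. The 3 comparisons share their animals in pairs, and the standard errors of the members in them ran from 0.13 to 0.30 on the log2 scale.

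**Figure D3:**
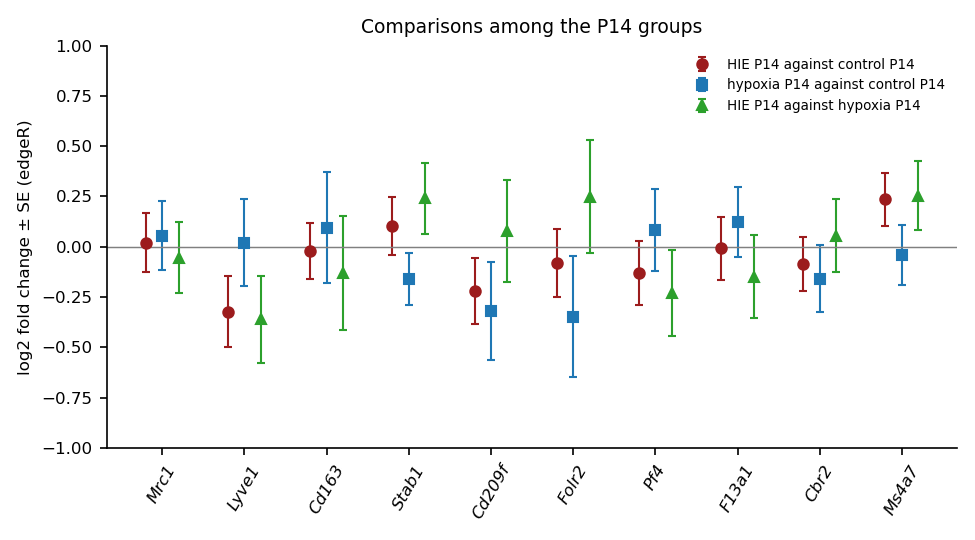
Log2 fold changes with standard errors from edgeR's quasi-likelihood test for the 10 genes in the 3 comparisons among the P14 groups. The points lie between -0.36 and 0.25, and none passed an adjusted p of 0.05.

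Each P14 litter held 1 male and 1 female, so the sexes were compared within litters. Folr2 was higher in the male in 5 of 6 litters, with male and female CPM of 20.2 and 12.8, 22.9 and 19.4, 16.1 and 8.34, 24.2 and 10.6, and 19.5 and 15.1, and lower in litter P4H1, with 15.1 and 19.0. Its difference, with litter as a block, was 0.49 ± 0.18 (adjusted p = 1, edgeR). The male was higher in 5 of 6 litters also in Mrc1, Lyve1, Pf4, F13a1, Cbr2 and Ms4a7, and litter P4H1 was the exception in each. Cd163 had the male higher in 3 of 6 litters, with the widest span, from 129 CPM in the female and 262 CPM in the male of litter P6H7 to 425 CPM in the female and 217 CPM in the male of litter P6H9. None of the 10 passed, beside 0.0432% of 20845 genes. Folr2 alone was under an unadjusted p of 0.05, beside 627 of these genes, and DESeq2 called 0, beside 18. Of the 10 differences, 9 were above 0, with a median of 0.21.

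**Figure D4:**
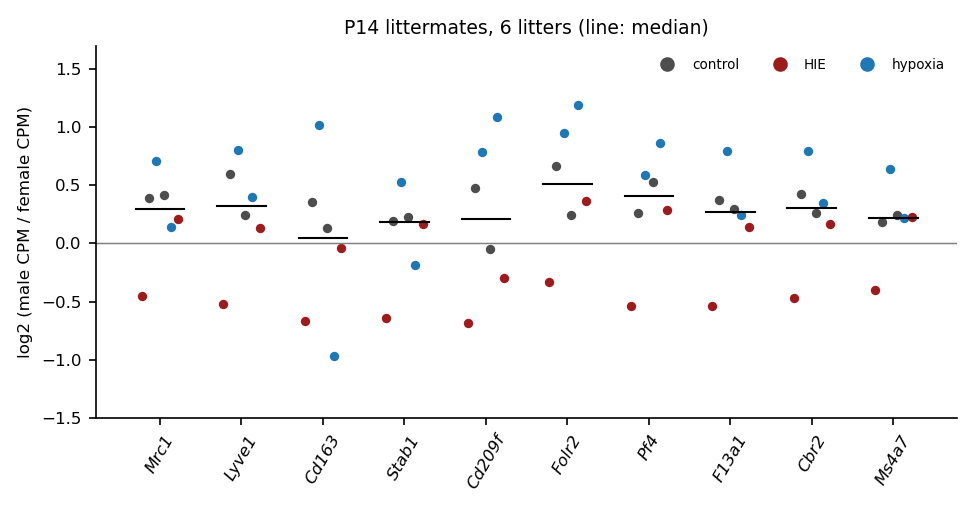
Log2 ratio of the male's CPM to the female's CPM in each of the 6 P14 litters for the 10 genes, coloured by group, with a line at the median. The HIE litter P4H1 lies below 0 in all 10 genes, from -0.33 in Folr2 to -0.68 in Cd209f.

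Over the 12 P14 animals the Pearson correlations of log2 CPM between members had a median of 0.664, from 0.188 between Cd163 and Cd209f to 0.919 between Lyve1 and F13a1. With the mean of the other 9 members, Cbr2 correlated at 0.952 and Mrc1 at 0.936, and Cd163 least, at 0.556. Over the 8 early pups the median was 0.966, which rests on litter P6H63: over the other 6 it was 0.731, from -0.25 to 0.951. These animals share litters and batches, and pairs of genes share the animals. For 2 HIE P14 animals with a second library, the 2 libraries differed by at most 1.06 and 1.11 times in any member. The standard deviation of log2 CPM between P14 littermates was 0.252 in Ms4a7 to 0.504 in Folr2, and that between the litter means of a group was 0.1 in Cbr2 to 0.331 in Cd163.

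The 10 other genes whose pattern was most like the members were Msr1, Lyz2, Tgfbi, Il4ra, Gpr65, Gm6377, Cybb, Pim1, Cfp and Il1b, ranked over 11777 genes by the mean of their correlations with the members' mean z score over the 12 P14 animals and over the 8 early pups. Msr1, a class A scavenger receptor, came first with 0.918 and 0.995, followed by Lyz2, the lysozyme of macrophages, with 0.93 and 0.973. Without litter P6H63, Msr1 was at 0.953 and Lyz2 at 0.601 over the 6 remaining early pups, and Il1b fell from 0.961 to 0.192. Dab2, an endocytic adaptor from the list of other border macrophage genes, ranked 11. The microglia gene P2ry12 correlated with the members at -0.323 on P14, and Csf1r at 0.0831, and over the 8 early pups they correlated at 0.949 and 0.967, which fell to -0.469 and 0.259 without litter P6H63.

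The last comparisons set P14 animals against the early pups, in the HIE and in the control arm, which share no animals but share the change of batch and depth. By label the HIE arm also went from males only on P7 to both sexes on P14, so day and sex cannot be fully told apart there. Both groups of the control arm held both sexes. In the HIE arm 6 of 10 members fell and none rose, beside 23.2% of 22577 genes that fell and 22.8% that rose. Pf4, a chemokine known from platelets and made by border macrophages, fell most. It was at 71.5, 94.6, 185 and 125 CPM in the HIE P7 pups and at 36.9, 53.6, 38.3 and 46.6 CPM on P14, and the groups did not overlap. Its change was -1.40 ± 0.26 (adjusted p = 0.00159, edgeR).

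Folr2 followed, from 28.5 to 50.8 CPM on P7 to 15.1, 19.0, 15.1 and 19.5 CPM on P14, with a change of -1.11 ± 0.17 (adjusted p = 0.000522, edgeR). Lyve1 went from 281, 316, 389 and 352 CPM to 142, 203, 141 and 155 CPM, a change of -1.02 ± 0.16 (adjusted p = 0.000557). Mrc1 changed by -0.65 ± 0.17 (adjusted p = 0.0104) and Stab1 by -0.62 ± 0.18 (adjusted p = 0.0159). These 5 genes did not overlap between the days, beside 25.6% of all genes that were lower without overlap. Cd209f changed by -0.55 ± 0.21 with an adjusted p of 0.0498, close to the threshold, and its groups overlapped.

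The other 4 members did not pass. Cd163 was at 161, 256, 254 and 248 CPM on P14, against 121 to 287 CPM on P7, a difference of 0.34 ± 0.25 (adjusted p = 0.291, edgeR). Cbr2 differed by 0.23 ± 0.14, Ms4a7 by -0.24 ± 0.18 and F13a1, the A subunit of coagulation factor XIII, by -0.31 ± 0.24. These results depended on the P7 litter. Without litter N8, Pf4, Lyve1 and Folr2 were still lower, by -0.92 ± 0.20, -0.89 ± 0.19 and -0.89 ± 0.17, while Mrc1 (-0.41 ± 0.18, adjusted p = 0.12), Stab1 and Cd209f no longer passed, and Cd163 was higher (0.83 ± 0.19, adjusted p = 0.0138). Calls over all genes fell too, to 3457 lower and 2997 higher of 24140, from 5231 and 5145 of 22577 with both litters. The count of 6 fell to 3 without the P14 litter P6H12, with litters summed and with the microglia score as a covariate. The microglia sum moved with the day, from 12204 to 14104 CPM on P7 to 15256 to 20785 CPM on P14, and its part in these results was tested only through that covariate.

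In the control arm none of the 10 passed, beside 33% of 22320 genes in either direction, and none was without overlap, beside 38.3%. Only Cbr2 had an unadjusted p under 0.05 in edgeR, beside 10288 of the 22320 genes, and DESeq2 called 0, beside 9558. The early controls split by litter here too. Pf4 was at 26.4 and 23.9 CPM in P6H63, 139.9 and 112 CPM in P6H55, and 48.9, 44.9, 40.8 and 64.7 CPM on P14. Its difference was -0.50 ± 0.61 (adjusted p = 0.548, edgeR), and Cbr2 had the largest, 1.24 ± 0.53 (adjusted p = 0.102). Without litter P6H63, 3 members were lower on P14, beside 16.2% of all genes: Pf4 by -1.28 ± 0.16 (adjusted p = 0.00139), Lyve1 by -0.998 ± 0.192 (adjusted p = 0.00753) and Mrc1 by -0.64 ± 0.18 (adjusted p = 0.0281). These 3 values stand beside -1.40, -1.02 and -0.65 in the HIE arm. By label the early animals were P10 and P11 in these controls and P7 in the HIE arm, so the spans of days differ. With P6H63 as the only early controls, all 10 members were higher on P14, by 1.28 in Pf4 to 3.12 in Cd163, beside 27.9% of all genes, so the direction of Pf4, Lyve1 and Mrc1 in controls depended on the litter. With all animals and pan-macrophage scaling, all 10 were below 0, from -1.87 in Pf4, the 1 call, to -0.29 in Cd163, while the median of all genes moved to -2.57.

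Folr2 differed between the arms in these values, at -1.11 ± 0.17 in HIE and, without P6H63, -0.01 ± 0.23 in controls. By label the arms also differed in the age of their early animals, and sex changed with the day in the HIE arm only. The difference itself, the HIE effect on the early day minus that on P14, was 1.71 ± 0.53 with all animals (adjusted p = 0.18, edgeR) and 1.08 ± 0.31 without P6H63 (adjusted p = 0.351). No member passed this test, beside 0.00405% of 24694 genes. Folr2 alone was under an unadjusted p of 0.05, beside 3432 of these genes, and DESeq2 called 0, beside 673.

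**Figure D5:**
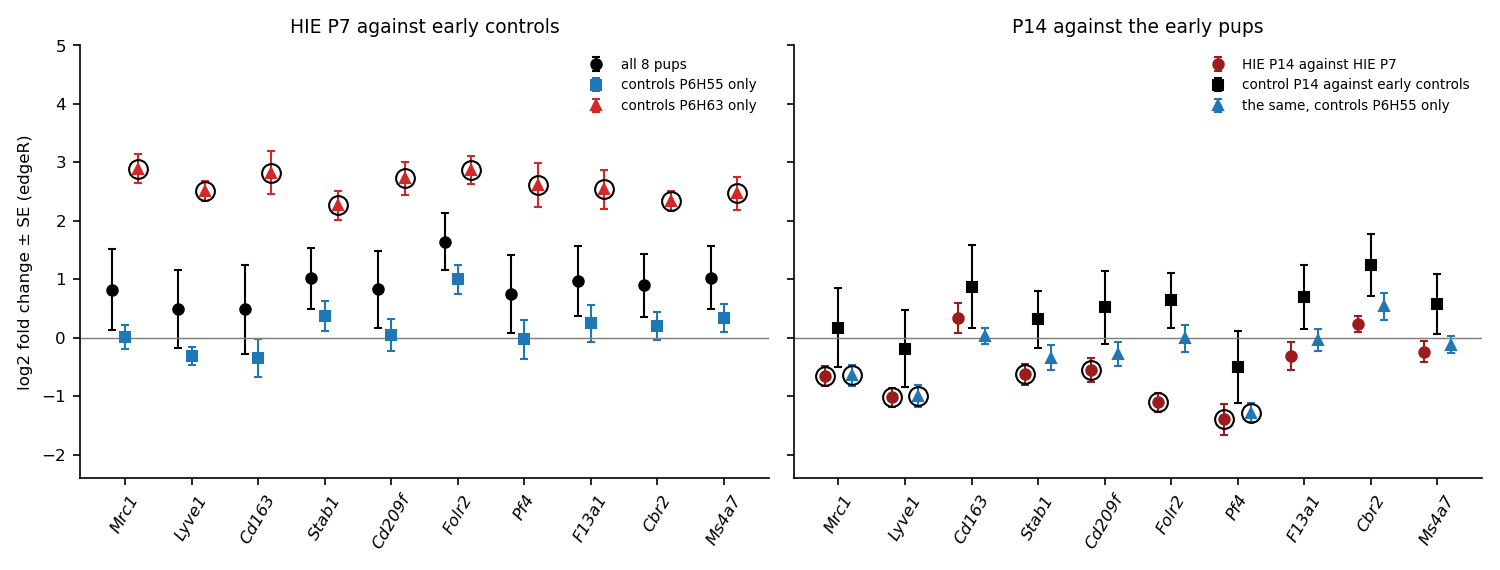
Log2 fold changes with standard errors from edgeR's quasi-likelihood test for the 10 genes, HIE P7 against early controls (left) and P14 against the early pups (right), with open black circles where the adjusted p was under 0.05. Using only the P6H63 controls puts all 10 genes between 2.26 and 2.89 on the left, and Pf4, Lyve1 and Mrc1 carry circles on the right in the HIE arm and in the control arm without P6H63.

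Other border macrophage genes were followed as a list of 24, of which 23 were tested. In the HIE arm 10 fell and 2 rose from P7 to P14, beside 23.2% and 22.8% of all genes, with a median of -0.42 beside 0.02 over all genes. Igfbp4, an insulin-like growth factor binding protein, fell by 1.35 on the log2 scale (adjusted p = 1.87e-05, edgeR), Dab2 by 1.73 (adjusted p = 0.000101) and Gas6, a bridging ligand for the uptake of dying cells, by 0.87 (adjusted p = 0.000399). The 2 that rose were the lectins Mgl2, by 0.99, and Cd209b, by 1.26. In the control arm 4 rose and 2 fell, beside 15.6% and 17.4% of all genes, led by Ednrb, the endothelin B receptor, at -1.06 (adjusted p = 0.00345), Cd38 at 0.66 (adjusted p = 0.00982) and Igfbp4 at -0.95 (adjusted p = 0.0115). Without litter P6H63, 4 rose and 7 fell, beside 15% and 16.2% of all genes, with Ednrb at -0.91, Cd38 at 0.65 and Igfbp4 at -1.22, all still past the test, and the list's median went from 0.54 to -0.23. Not all of these followed the members. Over the 8 early pups Ednrb correlated with the members' mean z score at -0.823, Cd38 at -0.0702 and Igfbp4 at 0.85. Without P6H63 these values were 0.249, 0.472 and 0.7, and over the 12 P14 animals 0.0902, 0.561 and 0.405. No gene of this list passed in the comparisons of treatments on either day.

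Border macrophages with MHC class II are often treated as a separate subset. Of 10 MHC class II and dendritic cell genes, 7 rose and 1 fell from P7 to P14 in the HIE arm, where 22.8% of all genes rose, and 7 rose and none fell in the control arm, where 15.6% rose. Without litter P6H63 the control counts were 6 and 1. H2-Aa rose by 2.64 ± 0.36 in HIE (adjusted p = 0.000254, edgeR) and by 2.59 ± 0.56 in controls (adjusted p = 0.0108), and Cd209a, a dendritic cell lectin, by 2.25 ± 0.26 (adjusted p = 8.46e-05) and 2.71 ± 0.66 (adjusted p = 0.0163). Without P6H63 the control values were 1.88 ± 0.19 in H2-Aa and 1.92 ± 0.25 in Cd209a, both still past the test. Itgax, which encodes CD11c, fell by 2.61 ± 0.19 in HIE (adjusted p = 4.67e-06), and in controls it fell only when P6H63 was left out, by 1.40 ± 0.26.

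Among 23 relatives of the members by gene family, 20 were tested in the HIE arm, where 5 rose and 3 fell, near the 22.8% and 23.2% of all genes. In the Cd209 family, Cd209a, Cd209b, Cd209c and Cd209d rose, Cd209c by 2.14 and Cd209d by 2.67. Cd209e (2.10 ± 0.83) and Cd209g (-0.38 ± 0.21) did not pass, and the member Cd209f passed at an adjusted p of 0.0498 that was lost without litter N8 (-0.18 ± 0.19, adjusted p = 0.511). Mrc2, the second mannose receptor family member and a collagen receptor, fell by 1.15 on the log2 scale (adjusted p = 0.00144, edgeR). RSEM divides reads between similar genes, so the counts of close relatives within the Cd209 and Ms4a families are less certain than those of the other members.

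Genes of other cells that use some of the same markers were checked beside the results. The 8 platelet genes, a list without Pf4, summed to 7.43 to 15.3 CPM in the 20 animals, below the level of Pf4 in every animal. Of 6 tested in the HIE arm Gp9 rose and Ppbp fell, where 22.8% of all genes rose and 23.2% fell. The 5 lymphatic endothelium genes, a list without Lyve1, summed to 49.7 to 219 CPM, and were highest in the P6H63 pups (193 and 219 CPM). Of 4 tested, 2 fell in the HIE arm (Prox1 by 0.51 and Mmrn1 by 1.01), beside 23.2% of all genes. In the control arm 3 fell with and without P6H63, beside 17.4% and 16.2% of all genes. The monocyte and neutrophil list, whose lineage shares F13a1, had 3 of 10 genes higher on P14 in HIE, near the 22.8% of all genes, led by S100a9 at 1.81 ± 0.49 (adjusted p = 0.0125, edgeR). All 8 immediate early genes, which respond to cell isolation, fell in the HIE arm, beside 23.2% of all genes, with a median of -1.12. Their sum there went from 12799 to 14903 CPM on P7 to 4033 to 7588 CPM on P14. In controls it was 12894 and 14114 CPM in P6H55, 5402 and 6755 CPM in P6H63, and 5474 to 7005 CPM on P14. The part of these genes in the members' results was not tested.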

How the data were processed

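Expected counts per gene from CD11b+ brain cells were deposited by the authors in a table for the P14 libraries and a table for the early pups. Per the labels and the study's methods they were made with STAR on GRCm39 and RSEM, unscaled, and the annotation release is not given in the sources used here. The members and all gene lists were chosen with earlier results of these data known. Counts were rounded, libraries of the same animal were summed, and 56017 of 56691 identifiers matched GENCODE M39 by Ensembl identifier, 674 did not. Gene names and positions came from that annotation and bases before gene starts from the GRCm39 genome. Tests were edgeR 4.0.16's quasi-likelihood test in R 4.3.3, with TMM, filterByExpr and Benjamini-Hochberg adjustment, between 2 groups at a time, with litter as a block for sex and an interaction for the HIE effect between days. DESeq2 1.42.0, the exact test, other scalings and filters, covariates and left-out animals or litters were alternatives. Gene lists were refitted without litter P6H63, an alternative chosen after seeing the data. The tests were checked on simulated counts with known changes of 2 on the log2 scale, drawn without a litter effect. Recovered were 71.7% of them in HIE P7 against early controls and 83.7% in HIE P14 against control P14. In control P14 against early controls it was 63.2%, and in HIE P14 against HIE P7 86.6%. The share was 91.5% for the sexes and 61% for the difference between days. CPM used total counts. At these depths 3 counts, the smallest level told from 0, are 0.0359 to 0.101 CPM, and every member was above this in every animal. Named genes were all 10 members, up to 3 genes of each list by smallest p past an adjusted p of 0.05 (or, where none passed, the 2 with the highest mean CPM, given here only as counts), and the 10 genes most like the members among those with a mean of at least 5 CPM on both days. Cd209b, Cd209c, Cd209e, Cd209g, Mgl2, P2ry12 and Csf1r were named after their values were seen. Correlations used log2 of CPM plus 0.1.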

Additional observations from a re-analysis of the deposited data

Results flagged for a closer look

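Cd163 in the P14 HIE group was flagged because 1 of 4 animals lay far below the others. The male of litter P4H1 had 161 CPM, where the other 3 HIE animals had 248, 254 and 256 CPM, and the gap to the nearest of them was 0.913 of the group's whole range, above Dixon's critical value for 4 samples. The same animal was the lowest of its group in 9 of the 10 genes, the exception being Lyve1. It was the only flag among 50 groups of 4 tested, where chance flags about 1 in 20.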

How the results depend on the processing

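No comparison among the P14 groups or between the sexes called any of the 10 genes under any alternative run. In HIE P7 against early controls, 0 genes became 1 with DESeq2 and with the exact test (Folr2 in both), beside 974 and 172 of 22517 genes higher. The count was 10 without litter P6H55, beside 6585 of 23780 genes higher. It was 0 to 3 when each animal was left out in turn. The 3 came without the P6H55 male, beside 1941 of 23060 genes higher. With pan-macrophage scaling and litter P6H63 left out, an alternative added after seeing the data, the count was 1, lower in HIE. Beside it, 6955 of 23274 genes were lower. In control P14 against early controls, 0 became 1 with pan-macrophage scaling and 3 with the microglia score as a covariate. The count was 3 without litter P6H63, beside 3595 of 22151 genes lower, and 10 without litter P6H55, beside 6328 of 22690 genes higher. With both pan-macrophage scaling and P6H63 left out, 5 members were lower, beside 7513 of 22151 genes. Leaving out each animal gave 0 to 1 (1 without the P6H55 male). In HIE P14 against HIE P7, 6 became 3 with the microglia score, with litters summed (4 samples in place of 8) and without litter P6H12, and 5 to 6 when each animal was left out. The difference between days went from 0 to 10 without litter P6H55, beside 3672 of 26212 genes that passed above 0. It went to 0 to 2 when each animal was left out (2 without the P6H55 male). No paired analysis was possible because replicate numbers only follow the order of accessions, except that littermates were paired in the comparison of the sexes. For the 10 genes in the early comparison and both comparisons between days, signs that turned, as log2 fold changes, were in HIE P7 against early controls Mrc1 -0.40, Lyve1 -0.76, Cd163 -0.63, Pf4 -0.60, F13a1 -0.51, Cbr2 -0.65, Ms4a7 -0.51, Cd209f -0.48, Stab1 -0.61 and Folr2 -0.0374 with pan-macrophage scaling, Mrc1 -0.34, Lyve1 -0.66, Cd163 -0.70, Pf4 -0.39, F13a1 -0.10, Cbr2 -0.14, Ms4a7 -0.01959 and Cd209f -0.30 with that scaling and P6H63 left out, Lyve1 -0.32 and Cd163 -0.31 with the microglia score, Cd163 -0.0314 without N8 and Lyve1 -0.31, Cd163 -0.35 and Pf4 -0.0289 without P6H63. In control P14 against early controls they were Mrc1 -1.08, Cd163 -0.29, F13a1 -0.82, Cbr2 -0.34, Ms4a7 -1.004, Cd209f -0.84, Stab1 -1.36 and Folr2 -1.08 with pan-macrophage scaling, Mrc1 -1.02, Cd163 -0.37, F13a1 -0.41, Ms4a7 -0.51, Cd209f -0.66, Stab1 -0.71 and Folr2 -0.39 with P6H63 also left out, Mrc1 -0.91, Cd163 -0.25, F13a1 -0.25, Ms4a7 -0.33, Cd209f -0.50, Stab1 -0.55 and Folr2 -0.16 with the microglia score, Lyve1 1.75 and Pf4 1.28 without P6H55 and Mrc1 -0.64, F13a1 -0.0386, Ms4a7 -0.12, Cd209f -0.27, Stab1 -0.34 and Folr2 -0.01031 without P6H63, and leaving out 1 animal gave ranges of -0.55 to 0.39 in Lyve1, -0.19 to 0.76 in Mrc1, -0.84 to 0.025 in Pf4 and -0.0038 to 0.89 in Stab1. In HIE P14 against HIE P7 they were Ms4a7 0.063 with the microglia score, Cbr2 -0.044 with pan-macrophage scaling, Cd163 -0.0657 without N5 and F13a1 0.0668 and Ms4a7 0.0871 without N8. With pan-macrophage scaling, Ms4a7 also turned to -0.006259 in HIE P14 against control P14 and Cd209f to -0.01716 in the difference between days, where Mrc1 (-0.0085) and Cd163 (-0.33) turned without P6H63. Other small differences that passed no test also changed sign and are not listed. The causes were not tested. The lowest CPM of any member was 4.76, above the smallest level told from 0, and each group held only 2 litters. The part of depth, which changed with the day, was not tested.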
